A study of Mus musculus with 16 samples.

Results

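The 10 genes described here encode proteins that coat lipid droplets or help them form: the perilipins Plin1, Plin2, Plin3, Plin4 and Plin5, the CIDE proteins Cidea and Cidec, the fat storage-inducing transmembrane proteins Fitm1 and Fitm2, and seipin, the product of Bscl2. They were chosen by symbol from a table of 24187 genes, and each was found in 1 row. RNA from mammary gland at day 13 of pregnancy was sequenced in 3 Socs2-Δs and 4 wild-type libraries, which are 7 of the 16 samples of the series; the other 9, for chromatin, were not used here. Socs2-Δs mice, called Mut in the titles, come from CRISPR/Cas9 editing and take their name from Socs2, whose product restrains JAK-STAT signalling; the labels do not say which bases were removed. Wild-type mice were bought C57BL/6 animals, and all samples carry that strain name, so the source of the mice and the genotype cannot be told apart. The genotype tag of the Socs2-Δs RNA samples reads wild type, against their titles and source names, and the libraries were grouped by title. Age and parity are not given in the labels. Nothing there says that each replicate is its own animal, and the spread behind every p-value is that between these libraries, which may be technical. Where glands of a group are named below, its libraries are meant.

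A lipid droplet is a core of triglyceride and sterol ester under a single layer of phospholipid, and the proteins on that layer decide how readily the core is broken down. Seipin and the FIT proteins act in the endoplasmic reticulum where droplets form, perilipins cover the finished droplet, and CIDE proteins pass lipid from small droplets to larger ones. The mammary gland holds both kinds of droplet: the large one of the adipocyte, coated with Plin1 and Cidec, and the milk fat droplet of the secretory epithelium, coated with Plin2 and released inside an envelope of plasma membrane.

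Depth was alike, with 21.8, 22.5 and 22.3 M (mega) recovered reads in Socs2-Δs replicates 1, 2 and 3, against 21.3, 21.5, 24.5 and 21.8 M reads in wild-type replicates 1 to 4. Socs2 itself measured 17.1, 13.9 and 16.0 FPKM in Socs2-Δs glands and 25.6, 22.1, 24.8 and 16.1 FPKM in wild-type replicates 1 to 4. Wild-type replicates 3 and 4 stood apart: across genes they correlated at 0.835 to 0.910 with the other 5 libraries, which correlated at 0.952 to 0.980 with each other. The nuclear RNA Neat1 was at 496 to 586 FPKM in Socs2-Δs glands and at 442 to 464 FPKM in the first pair of wild-type libraries, but at 11.4 and 14.8 FPKM in the other pair. The liver transcript Alb was at 2.70 to 4.01 FPKM in Socs2-Δs glands and at 6.01 and 6.15 FPKM in the first pair, but at 80.9 and 1137 FPKM in the other. The members are therefore compared with all 4 wild-type libraries and with wild-type replicates 1 and 2 alone. Markers of luminal epithelium summed to 1532 to 2304 FPKM in Socs2-Δs glands and to 844 to 1910 FPKM in wild type, so epithelium was present in every library, as the label mammary gland states.

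Each Socs2-Δs library had more Plin2 transcript and less Cidec than every wild-type library, and the order of the members differed with them. Plin2 was the most abundant member in all 3 Socs2-Δs libraries and in wild-type replicate 3, whereas Cidec came first in wild-type replicates 1, 2 and 4. In Socs2-Δs glands Plin2 averaged 905 FPKM and Cidec 168 FPKM. Plin4 and Plin1 followed with overlapping ranges, then Bscl2 and Plin3, whose ranges also overlapped. Fitm2, Cidea and Plin5 lay lower and Fitm1 lowest. FPKM is scaled to gene length, so levels of different genes may be set side by side.

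**Figure D1:**
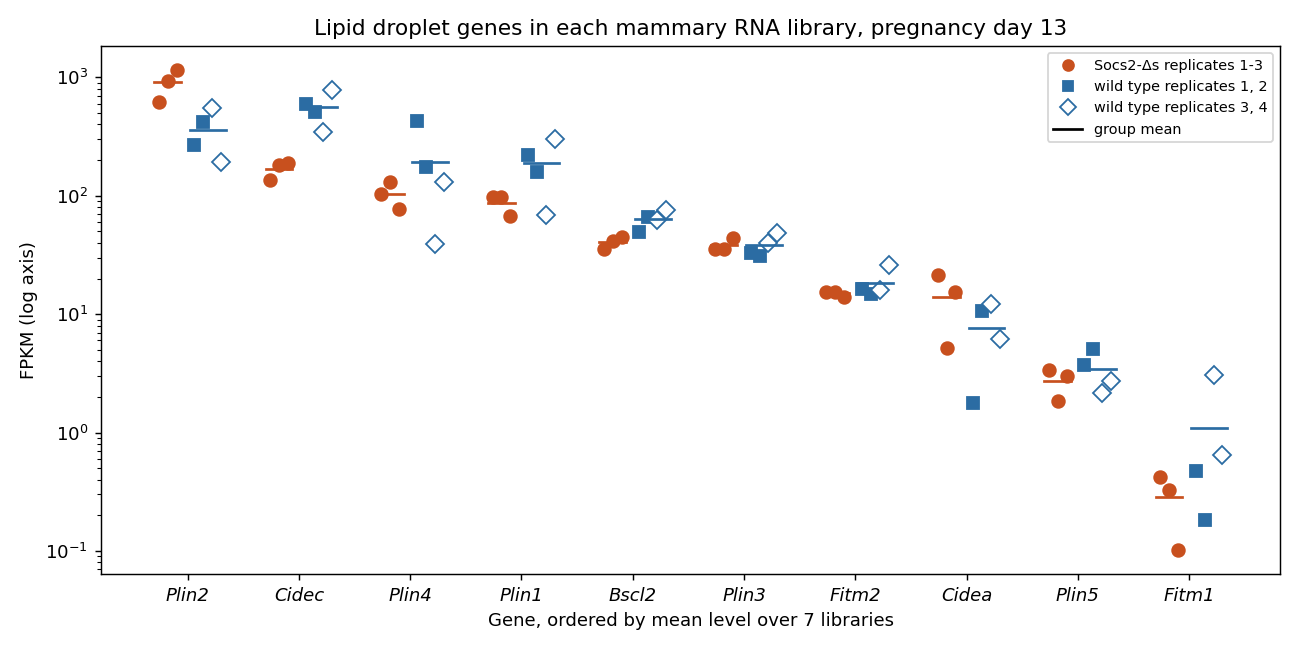
FPKM of the 10 genes on a log axis in each library, with genes ordered by their mean over 7 libraries; Socs2-Δs replicates are circles, wild-type replicates 1 and 2 filled squares, wild-type replicates 3 and 4 open diamonds, and bars are group means. Plin2, at 621 to 1155 FPKM in Socs2-Δs glands against 191 to 555 FPKM in wild type, and Cidec, at 135 to 188 FPKM against 349 to 785 FPKM, separate the groups in opposite directions.

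Of the 10 members, 9 had a mean of at least 1 FPKM and were tested; Fitm1 did not and was not tested. Against all 4 wild-type libraries, 0 of 9 members passed an adjusted p of 0.05 in limma, where 0.0448% of the 13392 genes tested did, and 3 members had an unadjusted p under 0.05, as did 18.1% of all genes tested. In this comparison 2 members were lower and 1 was higher without overlap of the groups, where 22.5% of all genes tested did not overlap in either direction. Against wild-type replicates 1 and 2, 1 of 9 members passed, where 1.94% of genes did, and 5 had an unadjusted p under 0.05, as did 20.1% of genes. Here 5 members were lower and 2 higher without overlap, where 39.9% of all genes did not overlap. The members' median log2 difference was -0.24 against all wild-type libraries, beside -0.0044 for all genes tested, and -0.49 against wild-type replicates 1 and 2, beside 0.03. All log2 differences are Socs2-Δs minus wild type on log2(FPKM + 1), a scale that understates differences of low genes.

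Plin2, the perilipin of milk fat droplets and of most cells that store little fat, was higher in every Socs2-Δs library. It measured 621, 939 and 1155 FPKM in Socs2-Δs replicates 1 to 3, against 267, 421, 555 and 191 FPKM in wild-type replicates 1 to 4. The groups did not overlap, and the wild-type library nearest to the Socs2-Δs glands was replicate 3. The mean was 905 ± 268 FPKM in Socs2-Δs glands (SD, n = 3) and 358 ± 162 FPKM in wild type (SD, n = 4), a ratio of 2.52. Its log2 difference was 1.40 (SE 0.42, 95% interval 0.44 to 2.37) and did not pass (limma adjusted p = 0.185). Against wild-type replicates 1 and 2 it was 1.38 (SE 0.35) and did not pass either (limma adjusted p = 0.109), although it passed after quantile normalization (limma adjusted p = 0.0328). In bulk tissue, more cells of a type and more RNA per cell cannot be told apart, nor can fewer cells and less RNA per cell.

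Plin1 and Plin4, the perilipins of white fat cells, lay lower in Socs2-Δs glands than in wild-type replicates 1 and 2 but not than in wild-type replicate 3. Plin1, which shields stored triglyceride from lipase and releases that block on hormone signalling, measured 97.8, 96.8 and 68.0 FPKM in Socs2-Δs glands and 219, 159, 69.1 and 302 FPKM in wild-type replicates 1 to 4. Wild-type replicate 3 fell inside the Socs2-Δs range, and the other 3 wild-type libraries were above it. The log2 difference was -0.92 (SE 0.47, limma adjusted p = 0.321) against all wild-type libraries and -1.10 (SE 0.23, limma adjusted p = 0.0749) against replicates 1 and 2. Plin4, which covers small, newly made droplets of adipocytes, measured 104, 131 and 77.0 FPKM in Socs2-Δs glands and 431, 175, 38.8 and 131 FPKM in wild-type replicates 1 to 4. The groups overlapped, with the lowest value of all in wild-type replicate 3 and the highest in replicate 1. Its log2 difference was -0.46 (SE 0.70, limma adjusted p = 0.714) against all wild-type libraries and -1.43 (SE 0.42, limma adjusted p = 0.145) against replicates 1 and 2. Without wild-type replicate 1 the first of these was 0.076.

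Plin5, which serves droplets next to mitochondria in oxidative tissue, was scarce. It measured 3.37, 1.86 and 2.996 FPKM in Socs2-Δs glands, against 3.69, 5.12, 2.16 and 2.74 FPKM in wild-type replicates 1 to 4, from 88 to 251 recovered reads a library. Wild-type replicates 1 and 2 were above the Socs2-Δs range, and replicates 3 and 4 were inside it. For Plin5 the log2 difference was -0.22 (SE 0.27, limma adjusted p = 0.634) against all wild-type libraries and -0.54 (SE 0.23, limma adjusted p = 0.263) against replicates 1 and 2. In the RefSeq order of chromosome 17, Plin5 lies beside Plin4 with 0 genes between them, and Plin3 comes after 9 more genes; in Socs2-Δs glands Plin5 averaged 2.74 FPKM, Plin4 104 FPKM and Plin3 38.2 FPKM.

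Plin3, a perilipin that moves between cytosol and nascent droplets in most cells, was the steadiest of the 5. It measured 35.4, 35.2 and 44.0 FPKM in Socs2-Δs glands, against 33.0, 31.2, 39.9 and 48.1 FPKM in wild-type replicates 1 to 4. The ranges overlapped over all 7 libraries, although wild-type replicates 1 and 2 lay below the Socs2-Δs range. A log2 difference of 0.02 was estimated (SE 0.20, limma adjusted p = 0.962), with a 95% interval of -0.44 to 0.47. Set against wild-type replicates 1 and 2 alone it was 0.24 (SE 0.14, limma adjusted p = 0.399).

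The makeup of the perilipin transcripts differed between libraries. Plin2 supplied 72.1%, 78.0% and 85.7% of the summed FPKM of the 5 perilipins in Socs2-Δs replicates 1 to 3, against 28.0%, 53.2%, 78.7% and 28.3% in wild-type replicates 1 to 4. Wild-type replicate 3 lay inside the Socs2-Δs range, and the other wild-type libraries below it. In wild-type replicate 3 the Plin2 level, 555 FPKM, was below every Socs2-Δs library. Its Plin1 and Plin4 were the lowest in wild type, at 69.1 and 38.8 FPKM. Plin1 supplied 11.4%, 8.04% and 5.05% in Socs2-Δs glands and 22.9%, 20.1%, 9.81% and 44.8% in wild type. There were 6.35, 9.69 and 16.98 FPKM of Plin2 for each FPKM of Plin1 in Socs2-Δs glands, against 1.22, 2.65, 8.03 and 0.63 in wild-type replicates 1 to 4. The sum of the 5 perilipins was 862, 1204 and 1346 FPKM in Socs2-Δs glands and 954, 791, 705 and 675 FPKM in wild type, so the sums overlapped between the groups. These shares are descriptions and were not tested.

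**Figure D2:**
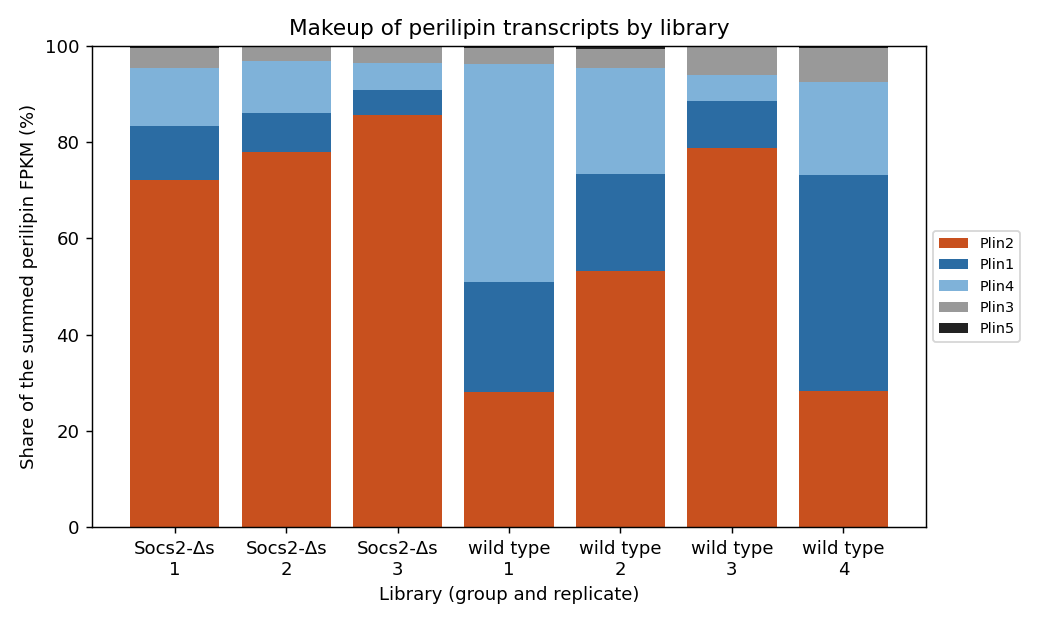
Share of each perilipin in the summed FPKM of the 5 perilipins, in percent, for the 3 Socs2-Δs libraries and then the 4 wild-type libraries. Plin2 fills 72.1 to 85.7% of the Socs2-Δs bars and 78.7% of the bar of wild-type replicate 3, against 28.0 to 53.2% in the other wild-type bars, where Plin1 and Plin4 take more.

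Cidec, which joins droplets into the single large droplet of the white adipocyte, was the member that passed the test. It measured 135, 181 and 188 FPKM in Socs2-Δs glands, against 595, 513, 349 and 785 FPKM in wild-type replicates 1 to 4. The lowest wild-type value, in replicate 3, was above the highest Socs2-Δs value. Against all wild-type libraries the log2 difference was -1.69 (SE 0.31, 95% interval -2.41 to -0.96), and it did not pass (limma adjusted p = 0.116). Against wild-type replicates 1 and 2 Cidec fell by 1.73 on the log2 scale (SE 0.20) and passed (limma adjusted p = 0.0311), but it did not pass when any 1 of those 5 libraries was left out (limma adjusted p between 0.0654 and 0.227) or when no filter on low genes was used (limma adjusted p = 0.0925). For each FPKM of Cidec there were 4.62, 5.19 and 6.13 FPKM of Plin2 in Socs2-Δs glands, against 0.45, 0.82, 1.59 and 0.24 in wild-type replicates 1 to 4. This ratio was chosen after the values were seen. It could not overlap between the groups, because Plin2 was higher and Cidec lower in every Socs2-Δs library. It therefore adds nothing to those results.

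Cidea, a CIDE protein of brown fat that is also made by lactating mammary epithelium in mice, overlapped between the groups. It measured 21.4, 5.21 and 15.4 FPKM in Socs2-Δs glands, against 1.79, 10.7, 12.1 and 6.15 FPKM in wild-type replicates 1 to 4. Socs2-Δs replicate 2 lay among the wild-type libraries, and the other Socs2-Δs libraries lay above them all. For Cidea the log2 difference was 0.82 (SE 0.62, limma adjusted p = 0.458) against all wild-type libraries and 1.20 (SE 0.77, limma adjusted p = 0.445) against replicates 1 and 2. Ucp1, the heat-producing carrier of brown fat mitochondria, measured 24.4, 1.20 and 4.28 FPKM in Socs2-Δs glands and 0.36, 3.44, 1.11 and 1.13 FPKM in wild type. The highest Cidea and the highest Ucp1 were thus in the same library, Socs2-Δs replicate 1, and the lowest of both in wild-type replicate 1. Other genes of the thermogenic list were mixed. Cox7a1, Cox8b and Elovl3 were also lowest in wild-type replicate 1, at 6.00, 11.5 and 0.02 FPKM. Their highest values were in wild-type replicate 3, at 28.9, 100 and 1.37 FPKM. Prdm16 and Cpt1b were instead highest in wild-type replicate 1, at 1.59 and 0.07 FPKM. Dio2, Ppargc1a, Otop1 and Kcnk3 were lowest in a Socs2-Δs library. The mean log2 level of the list was lowest in Socs2-Δs replicate 2, at 1.25. Kcnk3 was at 1.73 to 3.05 FPKM in Socs2-Δs glands and at 3.34 to 6.97 FPKM in wild type, and Prdm16 was lower without overlap too. The 10 genes of the list summed to 25.3 to 99.2 FPKM in Socs2-Δs glands and 25.5 to 142 FPKM in wild type, with the highest sum in wild-type replicate 3. The part of brown fat cells in the Cidea values was not tested.

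Promoter windows of Plin2, Cidec, Plin1 and Plin4 are shown because the last 3 lay lower together in Socs2-Δs glands than in wild-type replicates 1 and 2, while Plin2 lay higher. Each is the RefSeq window from 250 bases before to 50 after a gene start, in build GRCm38.p6, printed 5′ to 3′ on the strand of the gene. Capitals mark matches to any of 4 sets of letters searched on both strands. Plin5 and Bscl2 also lay lower than wild-type replicates 1 and 2 without overlap. Their windows were searched too but are not printed.
Plin2 (chr4:86670010-86670309, minus strand): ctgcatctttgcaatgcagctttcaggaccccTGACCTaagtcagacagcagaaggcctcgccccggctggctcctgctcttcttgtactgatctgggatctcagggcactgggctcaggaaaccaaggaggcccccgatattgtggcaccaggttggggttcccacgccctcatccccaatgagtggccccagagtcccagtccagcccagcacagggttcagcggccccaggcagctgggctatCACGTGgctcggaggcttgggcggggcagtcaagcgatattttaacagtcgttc
Cidec, first window (chr6:113435711-113436010, minus strand): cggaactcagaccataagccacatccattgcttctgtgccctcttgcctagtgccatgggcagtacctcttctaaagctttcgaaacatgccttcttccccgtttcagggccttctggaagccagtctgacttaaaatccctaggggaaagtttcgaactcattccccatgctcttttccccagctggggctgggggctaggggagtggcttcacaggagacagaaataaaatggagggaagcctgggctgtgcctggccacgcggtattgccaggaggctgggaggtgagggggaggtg
Cidec, second window (chr6:113434715-113435014, minus strand): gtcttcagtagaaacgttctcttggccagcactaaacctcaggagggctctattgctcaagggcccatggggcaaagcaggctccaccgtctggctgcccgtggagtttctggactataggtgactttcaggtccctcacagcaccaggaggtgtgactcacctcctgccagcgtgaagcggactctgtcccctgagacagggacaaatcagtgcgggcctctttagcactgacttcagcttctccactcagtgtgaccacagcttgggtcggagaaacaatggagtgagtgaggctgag
Plin1 (chr7:79732727-79733026, minus strand): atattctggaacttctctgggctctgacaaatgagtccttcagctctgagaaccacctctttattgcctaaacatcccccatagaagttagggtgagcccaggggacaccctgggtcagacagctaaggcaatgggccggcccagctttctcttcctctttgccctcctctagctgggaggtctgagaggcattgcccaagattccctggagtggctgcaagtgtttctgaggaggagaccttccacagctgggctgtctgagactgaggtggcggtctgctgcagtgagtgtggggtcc
Plin4 (chr17:56109733-56110032, minus strand): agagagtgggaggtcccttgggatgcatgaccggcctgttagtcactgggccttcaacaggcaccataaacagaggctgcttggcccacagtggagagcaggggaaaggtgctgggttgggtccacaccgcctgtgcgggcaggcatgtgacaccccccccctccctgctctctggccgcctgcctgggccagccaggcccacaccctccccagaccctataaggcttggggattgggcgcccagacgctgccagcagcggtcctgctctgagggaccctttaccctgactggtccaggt
The letters were TTCNNNGAA for STAT factors, AGGTCA for the half-site of nuclear receptors, CACGTG for the E-box and TTGCGCAA for C/EBP factors; all but AGGTCA equal their own reverse complement. Of the 32851 windows in the RefSeq set, 8.30% held the STAT letters, 16.3% the half-site, 7.15% the E-box and 0.183% the C/EBP letters. Windows were given for 9 of the 10 members, 13 windows in all. The Plin2 window held the half-site, read on the opposite strand, 218 bases before the start, and the E-box across the start, beginning 4 bases before it. The windows of Plin1, Plin4 and Cidec held none of the 4. Among the other members, the half-site was found in both Plin5 windows, which overlap but hold it at different places, and in 1 of the 3 Bscl2 windows. Members that lay lower than wild-type replicates 1 and 2 thus included some with a match and some without. So the half-site was in 4 member windows, the E-box in 1, and the STAT and C/EBP letters in 0, with 0 overlaps between different letters. A match is a description of the letters and not a sign of binding.

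Bscl2, whose product seipin holds the junction between the endoplasmic reticulum and a growing droplet, was lower in every Socs2-Δs library. It measured 35.4, 41.4 and 45.2 FPKM in Socs2-Δs glands, against 49.4, 66.1, 61.9 and 75.3 FPKM in wild-type replicates 1 to 4. The groups did not overlap, and wild-type replicate 1 was the nearest to the Socs2-Δs range. The mean was 40.7 ± 4.94 FPKM in Socs2-Δs glands (SD, n = 3) and 63.2 ± 10.7 FPKM in wild type (SD, n = 4). For Bscl2 the log2 difference was -0.61 (SE 0.19, 95% interval -1.06 to -0.17) and did not pass (limma adjusted p = 0.199). With replicates 1 and 2 alone it was -0.49 (SE 0.17, limma adjusted p = 0.202).

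Fitm2, the FIT protein found in most tissues, was even across 6 of the 7 libraries. It measured 15.5, 15.5 and 14.1 FPKM in Socs2-Δs glands, against 16.4, 14.7, 15.9 and 26.1 FPKM in wild-type replicates 1 to 4. Only wild-type replicate 4 stood clear of the rest. The log2 difference was -0.24 (SE 0.21, 95% interval -0.72 to 0.25, limma adjusted p = 0.525) against all wild-type libraries and -0.05 (SE 0.11, 95% interval -0.31 to 0.21, limma adjusted p = 0.838) against replicates 1 and 2.

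Fitm1, the FIT protein of skeletal muscle and heart, was close to the limit of detection in 6 libraries. It measured 0.42, 0.33 and 0.10 FPKM in Socs2-Δs glands, from 9, 7 and 2 recovered reads, against 0.47, 0.18, 3.04 and 0.65 FPKM in wild-type replicates 1 to 4, from 11, 4, 59 and 12 reads. Wild-type replicate 3 stood above all others. Summed skeletal muscle markers were highest in the same library, at 1255 FPKM, against 45.6 to 191 FPKM in Socs2-Δs glands and 52.2 to 285 FPKM in the other wild-type libraries. Socs2-Δs replicate 3 and wild-type replicate 2 were lowest by both measures, and the part of muscle in the Fitm1 values was not tested.

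**Figure D3:**
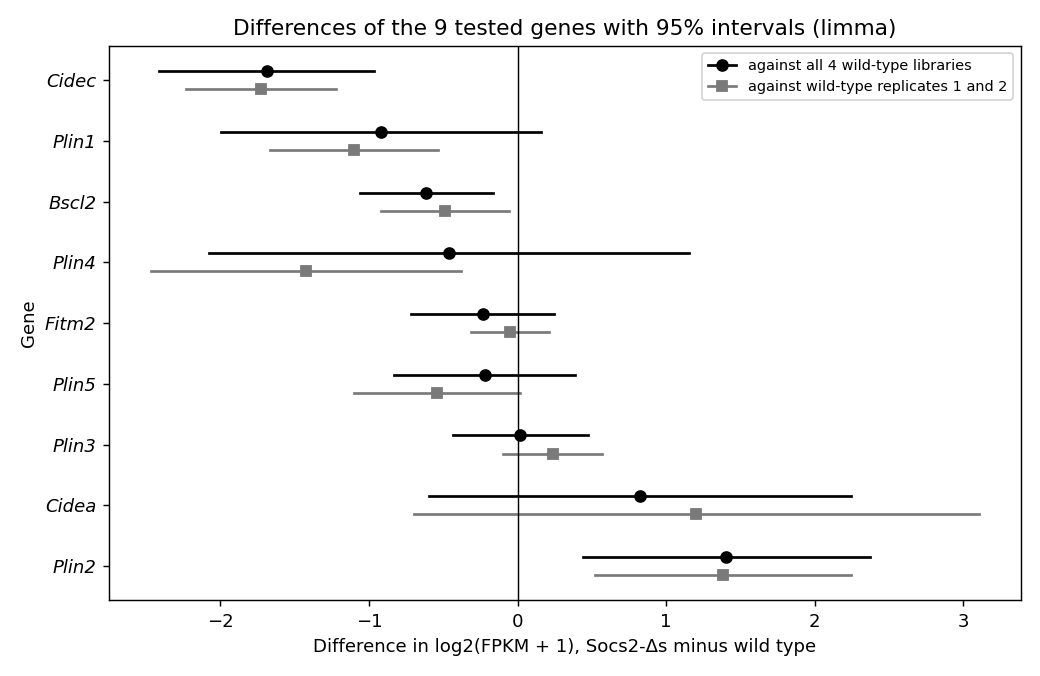
Difference in log2(FPKM + 1), Socs2-Δs minus wild type, with 95% intervals from limma, for the 9 tested genes; circles are against all 4 wild-type libraries and squares against wild-type replicates 1 and 2. The intervals of Cidec and Bscl2 lie below 0 and those of Plin2 above 0 in both comparisons, while those of Plin1 and Plin4 lie below 0 in the second alone; after adjustment over all genes, only Cidec against replicates 1 and 2 passed.

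Other genes of droplet metabolism did not share 1 direction. Of 14 tested regulators of the droplet surface and of lipolysis, 0 passed in either comparison, 2 had an unadjusted p under 0.05 against all wild-type libraries and 6 against replicates 1 and 2, and the median log2 difference was -0.01 and 0.06; 8 lay below 0 and 6 above 0 against all wild-type libraries. Within this list Lipe, the hormone-sensitive lipase, measured 65.6, 86.7 and 85.1 FPKM in Socs2-Δs glands and 176, 142, 73.9 and 207 FPKM in wild type, with wild-type replicate 3 again inside the Socs2-Δs range, as for Plin1. Its log2 difference from replicates 1 and 2 was -1.002 (SE 0.18, limma adjusted p = 0.0616). G0s2, an inhibitor of the main triglyceride lipase, measured 310, 439 and 719 FPKM in Socs2-Δs glands and 231, 272, 462 and 276 FPKM in wild type, where it overlapped. Of 12 enzymes of triglyceride assembly, 0 passed against all wild-type libraries, with 7 at an unadjusted p under 0.05; the median was -0.61. In the other comparison the median was -0.35 and 1 passed: Acsl4, which activates long polyunsaturated fatty acids, was 1.82 higher on the log2 scale (SE 0.20, limma adjusted p = 0.0248). Acsl4 went against the median of its list, where 7 lay below 0 and 5 above 0 in both comparisons. Dgat2 and Agpat9 were lower without overlap but did not pass. Their log2 differences from all wild-type libraries were -1.50 and -1.67 (limma adjusted p = 0.153 and 0.110). Acsl4, Agpat6 and Lpin3 were higher without overlap in the same comparison and did not pass either. Their log2 differences were 1.57, 0.47 and 0.67 (limma adjusted p = 0.126, 0.263 and 0.307).

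Genes of the milk fat globule envelope, the membrane that wraps Plin2-coated droplets on release, lay mostly on the same side as Plin2, with 5 of 6 above 0 in both comparisons. Against all wild-type libraries 0 of 6 passed, with 3 at an unadjusted p under 0.05 and a median of 1.25; against replicates 1 and 2, 2 of 6 passed and the median was 1.05. Btn1a1, butyrophilin, measured 195, 180 and 213 FPKM in Socs2-Δs glands and 58.8, 72.5, 72.4 and 19.9 FPKM in wild-type replicates 1 to 4. It rose by 1.57 against replicates 1 and 2 (SE 0.15, limma adjusted p = 0.0233). Xdh, the xanthine oxidoreductase that binds butyrophilin, measured 167, 149 and 136 FPKM in Socs2-Δs glands and 52.5, 47.6, 38.2 and 30.6 FPKM in wild type, and rose by 1.57 as well (SE 0.14, limma adjusted p = 0.0204). The calls of Acsl4 and Xdh held in 1 of the 5 fits that left out a library of this comparison, the one without Socs2-Δs replicate 3, and that of Btn1a1 in 0.

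Plin2 was highest where transcripts of milk-secreting alveolar cells were highest. The 7 alveolar secretory markers summed to 49633, 59878 and 64346 FPKM in Socs2-Δs replicates 1 to 3, against 8525, 13076, 29874 and 3098 FPKM in wild-type replicates 1 to 4. The mean log2 level of this list put the 7 libraries in the same order as Plin2. Against all wild-type libraries 0 of 7 passed, although 7 had an unadjusted p under 0.05, with a median of 2.52. With replicates 1 and 2 alone the median was 2.49 and 4 rose, namely Csn3, Lalba, Lao1 and Wap. Of their calls, 2 held in a fit that left out 1 library: Wap without Socs2-Δs replicate 2 or 3, and Lalba without Socs2-Δs replicate 3. The part of these cells in the Plin2 values was not tested. Luminal epithelial markers differed less, with a median of 0.43 against all wild-type libraries and 0.38 against replicates 1 and 2, and 0 of 12 passed in either, with 2 and 3 at an unadjusted p under 0.05.

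Cidec was lowest where adipocyte transcripts were lowest. The 15 adipocyte markers, none of them a member here, summed to 5232, 7698 and 8335 FPKM in Socs2-Δs replicates 1 to 3, against 14831, 15344, 16573 and 34380 FPKM in wild-type replicates 1 to 4, without overlap. Against all wild-type libraries 0 of 15 passed, with 12 at an unadjusted p under 0.05 and a median of -1.12. Against replicates 1 and 2 the median was -0.98 and 2 passed. Pparg, the master regulator of fat cells, fell by 0.85 on the log2 scale (SE 0.12, limma adjusted p = 0.0405). Tusc5, a partner of glucose transport in fat, fell by 1.497 (SE 0.21, limma adjusted p = 0.0408). Each lost its call when any 1 of the 5 libraries was left out, and Pparg also with quantile normalization (limma adjusted p = 0.0517). Cidec stood 0.81, 0.93 and 1.06 log2 units above the mean log2 level of this list in Socs2-Δs glands, against 1.65, 1.73, 1.25 and 1.24 in wild-type replicates 1 to 4, a distance that did not overlap between the groups. Plin1 stood 0.35, 0.04 and -0.39 from the list in Socs2-Δs glands and 0.21, 0.04, -1.06 and -0.14 in wild type, where the groups overlapped. Plin2, Plin3, Fitm2 and Bscl2 did not overlap by this measure either, but stood higher against the list in Socs2-Δs glands. The list itself lay lower there, at a mean log2 level of 6.28 to 6.57 against 7.19 to 8.38 in wild type. A gene at an even level, as Plin3 and Fitm2 nearly were, must then stand higher against it, so the measure adds nothing on such genes. For Bscl2 the distance was -1.17 to -0.97 in Socs2-Δs glands and -2.13 to -1.21 in wild type. The share of all genes without overlap by this measure was not counted. The part of adipocytes in the Cidec, Plin1 and Plin4 values was not tested.

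**Figure D4:**
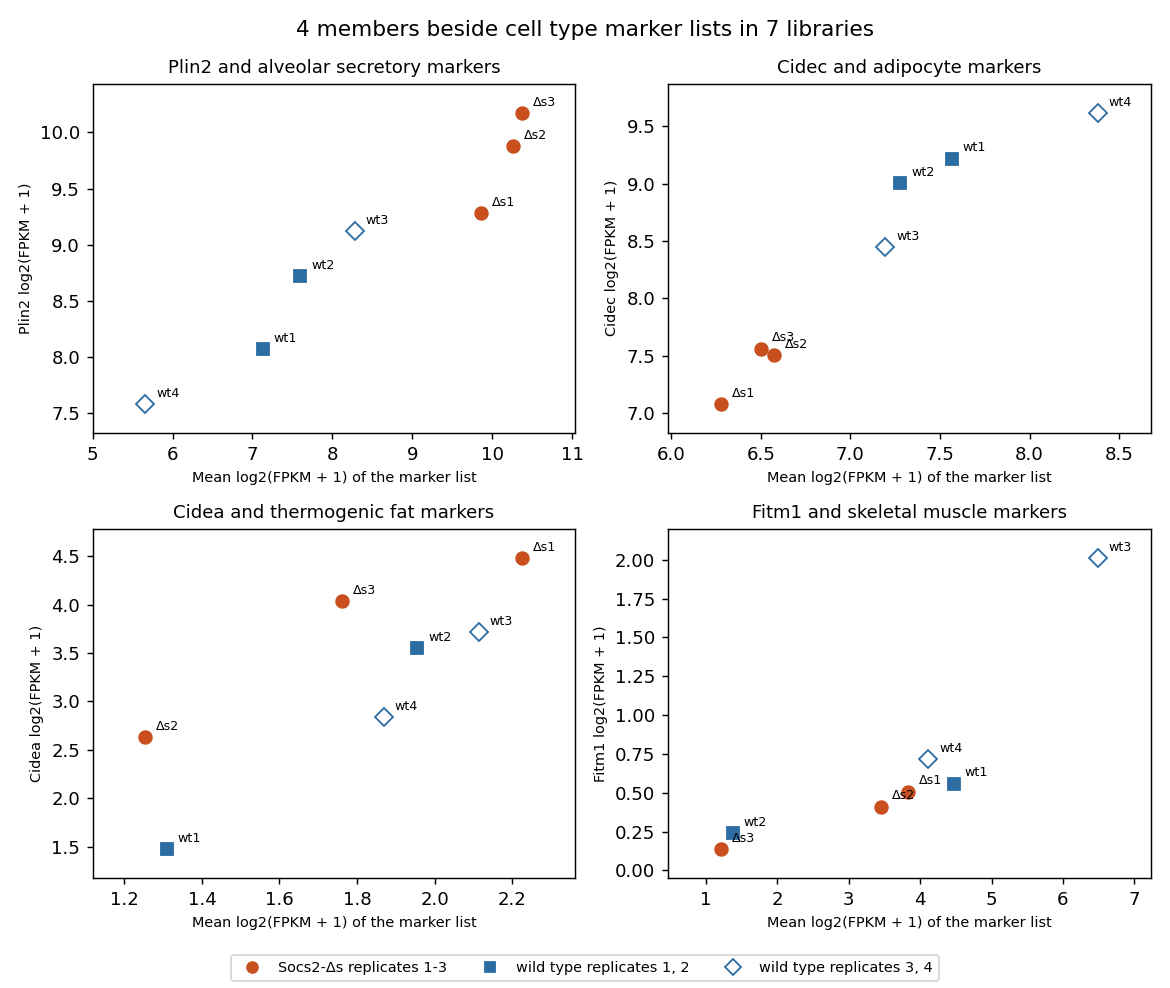
Level of 4 members as log2(FPKM + 1) against the mean log2(FPKM + 1) of a marker list in each of 7 libraries; circles are Socs2-Δs (Δs), filled squares wild-type replicates 1 and 2, open diamonds wild-type replicates 3 and 4 (wt). Plin2 ranks the libraries as the alveolar secretory list does, Cidec ranks the 4 wild-type libraries as the adipocyte list does and above all 3 Socs2-Δs libraries, Cidea and the mean log2 level of the thermogenic fat list, though not its summed FPKM, share their highest library, Socs2-Δs replicate 1, and Fitm1 and the muscle list share theirs, wild-type replicate 3.

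The remaining lists were measured for other cell types that the dissected tissue could hold. Against all wild-type libraries 0 of the 111 tested entries of the 12 lists passed, with 44 at an unadjusted p under 0.05 (18.1% over all genes tested), and the medians were -0.26 for 6 tested thermogenic fat markers, 0.06 for 7 myoepithelial, -1.32 for 10 skeletal muscle, -2.57 for 8 liver, -1.92 for 6 salivary gland and -0.75 for 8 macrophage markers. With replicates 1 and 2 alone these medians were 0.14, 0.05, -0.01, -0.18, -0.14 and -0.45, and 1 gene passed, the amylase Amy1, which fell by 1.15 (SE 0.16, limma adjusted p = 0.0405) and lost its call with any 1 library left out and with quantile normalization (limma adjusted p = 0.0517). Of the 8 macrophage markers, 7 had an unadjusted limma p under 0.05 against all wild-type libraries and 5 against replicates 1 and 2. Over all genes tested these shares were 18.1% and 20.1%. All 8 lay below 0 in both comparisons. The thermogenic fat, myoepithelial, skeletal muscle, liver and salivary gland lists had 0 or 1 such marker in the first comparison and 0 to 3 in the second.

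The genes whose pattern over the 7 libraries was most like that of Cidec, by the root mean square difference of centred log2(FPKM + 1) among 12634 genes, were Fsd2, at 0.18, Bnip3, at 0.25, Prkar2b and Ffar2, at 0.26 and 0.27, and Ptrf, at 0.34. Plin1 was the nearest member to Cidec, at rank 261. For Plin2 they were Fkbp11, at 0.16, Alox15 and Ttc25, each at 0.18, Sowahb, at 0.19, and Cldn8, at 0.21. The nearest member to Plin2 was Cidea, at rank 5773, and the farthest was Cidec, at rank 12408.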

How the data were processed

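The 7 poly(A) RNA libraries of mammary gland were analysed. The authors deposited FPKM, read counts per kilobase of gene scaled to library size; per the submitters' processing notes, the tools were STAR, Bowtie2, CASAVA and DESeq2 (roles and versions unstated) and the mouse build was mm9; the annotation is not given in the sources used here. Members, lists and comparisons were chosen with earlier results of these data known. The steps between low FPKM gave whole reads in 21044 of 21044 rows above 0 (tolerance 0.02 of a read), used to describe depth; 3143 rows were at 0. Differences were fitted in R 4.3.3 with limma 3.58.1 (lmFit, then eBayes with a trend) to log2(FPKM + 1). The 13392 genes averaging 1 FPKM or more over the 7 libraries entered, with Benjamini-Hochberg adjustment over all of them and a threshold of 0.05; it was tested on simulated data. No covariate was used. A comparison with wild-type replicates 1 and 2 used the same genes. The named genes are the 10 members; in 12 lists, those past the threshold or else the 3 of smallest p, of which the text gives some; the 5 genes most like Cidec and Plin2; and Socs2, Neat1 and Alb. Cox7a1, Cox8b, Elovl3, Cpt1b, Dio2, Ppargc1a, Otop1, Dgat2, Agpat9, Agpat6 and Lpin3 were named in addition, after their values were seen. Same-numbered libraries of both genotypes had correlations of deviations of 0.35, 0.06 and 0.19, not all over 0.1, so numbers were not taken to pair samples. Coordinates are RefSeq's, not the authors' build. Overlapping genes could share reads, since the use of strand is not given. Protein sequences were not used here.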

Additional observations from a re-analysis of the deposited data

Results flagged for a closer look

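In wild type, 2 of the 10 members had 1 of their 4 libraries far from the others by Dixon's criterion, which chance meets in about 5% of groups. The share over all genes was not counted, so these flags cannot be called particular to the members. Fitm1 measured 3.04 FPKM in wild-type replicate 3, against 0.18 to 0.65 FPKM in the other wild-type libraries. Fitm2 measured 26.1 FPKM in wild-type replicate 4, against 14.7 to 16.4 FPKM in the others. Both libraries are among those that stood apart from the rest over all genes, and the part of that departure in either value was not tested.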

How the results depend on the processing

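Of 241 values of the 9 tested members under the alternatives, 228 kept their direction and their side of the threshold, 7 lost a call, 1 gained one and 5 reversed. The reversals came with 1 library left out. Plin3 against all wild-type libraries then ran between -0.085 and 0.135, and was below 0 without Socs2-Δs replicate 3, wild-type replicate 1 or wild-type replicate 2. Plin4 ran between -1.07 and 0.076, above 0 without wild-type replicate 1. Fitm2 against replicates 1 and 2 ran between -0.126 and 0.023, above 0 without wild-type replicate 1. Members past the threshold against all wild-type libraries stayed at 0 in every alternative. Against replicates 1 and 2 there were 2 with quantile normalization, 0 without a filter and 0 with any 1 library left out. Cidec had an adjusted p of 0.0714 to 0.441 over the alternatives against all wild-type libraries and of 0.0151 to 0.227 against replicates 1 and 2. Genes past the threshold numbered 6 against all wild-type libraries. They were 1 with a pseudocount of 0.1, 1 without a filter, 0 at a mean of at least 5 FPKM, 28 with quantile normalization, 0 when wild-type replicates 3 and 4 had a term of their own, and 0 to 31 with 1 library left out: 31 without wild-type replicate 4, 17 without replicate 3, 1 without Socs2-Δs replicate 3 and 0 otherwise. Against replicates 1 and 2 they were 260, and 0 to 42 with 1 library left out, which is 42 without Socs2-Δs replicate 3, 6 without replicate 2, 1 without replicate 1, 2 without wild-type replicate 1 and 0 without wild-type replicate 2. Without a filter they were 0; after that was seen, rows at 0 in all 5 libraries were left out as well, which gave 25 genes and 0 members. The 10 list genes called in this comparison all lost their call without a filter. The cause of these shifts was not tested. With the replicate block, genes numbered 0 and 130 in the 2 comparisons and members 0 and 1, and Pparg, Tusc5 and Amy1 did not pass (adjusted p 0.0592 to 0.074); each library of replicates 1 to 3 correlated best with its own number, a hint from the data and not from the design. Fitm1, with 2 to 59 reads a library, is limited by depth.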
